A study of Mus musculus with 47 samples.

Results

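The BCL2 family decides whether a cell's mitochondria release the signals that start apoptosis. Its 8 genes described here were Bcl2, Bcl2l1, Mcl1, Bcl2l11, Bax, Bak1, Bid and Bnip3l, chosen by name, out of 18193 genes that the arrays measured with a probe set of their own. Each gene was read from whichever of its probe sets was brightest on average. That gave values for 6 of the 8, all of which passed the filter on low values. No probe set was named for Bax in the annotation used, and the 3 probe sets that name Bnip3l also name its pseudogene Bnip3l-ps, so neither gene has a value below.

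Bcl2, Bcl2l1 (BCL-XL) and Mcl1 encode anti-apoptotic proteins that hold the pore-forming proteins Bax and Bak1 in check. Bcl2l11 (BIM) and Bid are BH3-only proteins, which respond to stress or to loss of growth signals by occupying the anti-apoptotic proteins and by activating Bax and Bak1. Bnip3l (NIX) marks mitochondria for removal and is known for clearing them from maturing red cells. In blood formation BCL-XL is known for keeping late erythroid cells and platelets alive, MCL1 for stem cells and granulocytes, and BCL2 for lymphocytes, while BIM removes lymphocytes that lack survival signals.

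RNA came from the leukaemic spleens of 47 mice, with 1 array per mouse, each a separate animal. All mice carried Tg(ACTB-cre)2Mrt, a Cre gene driven by a promoter active in most tissues, and Gt(ROSA)26Sortm2(sb11)Njen, the Sleeping Beauty transposase that this Cre switches on. The mobile transposon was TgTn(sb-T2/Onc2)6113Njen in 21 mice (line 6113) and TgTn(sb-T2/Onc2)6070Njen in 26 mice (line 6070). The tumours were labelled with an Erg insertion in 26 mice (9 of line 6113 and 17 of line 6070) and without one in 21 mice (12 of line 6113 and 9 of line 6070). Erg is an ETS family transcription factor of stem cells and megakaryocytes. Every mouse was labelled with terminal, undifferentiated myeloid leukaemia, and the age labels, whose unit was not given, ran from 32 to 97. No spleen without leukaemia was analysed here, so the values compare leukaemias with each other. The sex labels named 25 females and 22 males, but Xist, the RNA that coats the inactive X chromosome of females, matched the label on 23 arrays and not on 24, so sex is given only as a label. Whether the Erg, line and age labels share that mismatch was not tested, and every value by label below rests on the labels as deposited.

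Values are log2 RMA expression values, on which 1 unit is a doubling of the signal. Array medians lay between 5.19 and 5.24, close to the floor of the scale, so differences of dim genes are understated. The arrays correlated pairwise with r between 0.903 and 0.991. Lineage was read from Klf1, a transcription factor of erythroid cells, Vpreb1, part of the receptor that B cell precursors carry, and Cd3d, a chain of the T cell receptor complex. Klf1 ran from 5.62 to 9.99 with a median of 9.14 and was above log2 7 on 43 arrays. Vpreb1 ran from 5.18 to 11.06 with a median of 5.47 and was above log2 7 on 15 arrays, and Cd3d ran from 5.24 to 10.23 with a median of 5.54 and was above it on 9. Klf1 was thus high on most arrays, and Vpreb1 or Cd3d on a minority. Of the myeloid markers behind the diagnosis label, the neutrophil list had a mean between 5.30 and 9.48 over the arrays and the macrophage list one between 6.47 and 8.25, but the granule gene Elane never passed log2 6. In whole spleen, fewer cells of a type and less RNA per cell cannot be told apart.

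The promoters of 3 members are shown because the results below turn on these genes: Bcl2l11 moved against the erythroid marker, and Bcl2l1 and Mcl1 moved with each other. Each is the 250 bases before a start of the gene, 5′ to 3′ on the gene's strand, from RefSeq on GRCm38.p6. Where a gene had several starts, the one with the lowest coordinate is shown. For Bcl2l1 on the minus strand that is the most downstream start, and for Bcl2l11 on the plus strand the most upstream one. Capitals mark matches to CACCC, the core that KLF proteins bind, or to GATAA, the core that GATA proteins bind, searched on both strands (GGGTG is CACCC on the other strand).
Bcl2l11, chr2:128125788-128126037, plus strand: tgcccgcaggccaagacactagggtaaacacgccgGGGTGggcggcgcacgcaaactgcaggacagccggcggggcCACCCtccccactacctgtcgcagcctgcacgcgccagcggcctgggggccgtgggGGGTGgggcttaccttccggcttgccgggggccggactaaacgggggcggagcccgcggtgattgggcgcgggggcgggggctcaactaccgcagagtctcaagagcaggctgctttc
Bcl2l1, chr2:152828490-152828739, minus strand: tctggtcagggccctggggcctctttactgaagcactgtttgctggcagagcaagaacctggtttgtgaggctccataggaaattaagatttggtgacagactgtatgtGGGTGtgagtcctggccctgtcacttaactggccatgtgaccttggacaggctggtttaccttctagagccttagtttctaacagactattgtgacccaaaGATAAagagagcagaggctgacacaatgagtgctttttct
Mcl1, chr3:95658471-95658720, plus strand: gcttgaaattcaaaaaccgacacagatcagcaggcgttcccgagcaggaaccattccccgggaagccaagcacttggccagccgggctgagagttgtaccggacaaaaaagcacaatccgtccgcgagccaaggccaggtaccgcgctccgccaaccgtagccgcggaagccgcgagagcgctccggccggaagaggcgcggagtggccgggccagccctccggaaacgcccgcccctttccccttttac
The Bcl2l11 window held 3 CACCC matches, which began 215, 174 and 118 bases before the start, and no GATAA. The Bcl2l1 window held 1 GATAA that began 40 bases before the start and 1 CACCC that began 141 bases before it. The Mcl1 window held neither. Over all 32851 promoters of the table, 52.0% held CACCC and 22.6% held GATAA in the same window, so a single match is common. How often a window holds 3 was not counted. The Bcl2l11 window was 72.0% G and C, against a median of 52.4% over all promoters. The Bid window, not printed, held 2 CACCC matches, and Bid was not called with Klf1 in the fit below (limma adjusted p = 0.664). Whether any match bears on the levels was not tested. The STAT motif TTCNNNGAA, on either strand, was present in 7.02% of promoters and in none shown here. The table gave promoters for 7 of the 8 members. The table has further start sites for Bcl2l1 and Bcl2l11, not printed here: the second Bcl2l11 window held neither motif, the second Bcl2l1 window held 1 CACCC and no GATAA, and the third held neither.

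The anti-apoptotic genes differed in how much they varied between leukaemias. Bcl2 ran from 5.34 to 7.37 with a median of 5.83, and its mean was 5.99 ± 0.46 (SD, n = 47). It lay above log2 6 on 19 arrays and above log2 7 on 3. Those 3 arrays were replicate 20 without an Erg insertion at 7.37, replicate 14 without an Erg insertion at 7.18 and replicate 11 with an Erg insertion at 7.08, all of line 6070. Bcl2 was thus close to the floor in most spleens and clearly expressed in a few. Its SD was larger than that of 94.3% of the genes tested, whose median SD was 0.10. The other Bcl2 probe sets had lower means, between 5.18 and 5.36, and r between 0.49 and 0.92 with the chosen one.

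Bcl2l1 ran from 6.16 to 7.20 with a median of 6.58 and a mean of 6.61 ± 0.27 (SD, n = 47), and lay above log2 6 on all 47 arrays. The 5 arrays above log2 7 held 7.20, 7.16, 7.14, 7.07 and 7.04. Its other 3 probe sets lay between 4.98 and 5.27 on every array, at the floor, so the Bcl2l1 results rest on 1 probe set. Mcl1, which encodes a short-lived protein, ran from 8.62 to 9.62 with a median of 8.92 and a mean of 8.93 ± 0.22 (SD, n = 47). Of its 6 probe sets, 5 lay above log2 7 on all 47 arrays. Every spleen therefore had a clear Mcl1 signal within a range of 1 log2 unit.

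Of the BH3-only members, Bcl2l11 had a larger SD than Bid. It ran from 5.70 to 7.62 with a median of 6.49 and a mean of 6.56 ± 0.41 (SD, n = 47), and its SD was larger than that of 92.7% of the genes tested. It lay above log2 6 on 43 arrays and above log2 7 on 8. Bid, whose protein is cut by caspase-8 and so links death receptors to the mitochondrion, ran from 5.76 to 6.97 with a median of 6.13 and a mean of 6.19 ± 0.26 (SD, n = 47). Bak1, one of the pore-forming effectors, ran from 5.57 to 6.45 with a median of 5.78 and a mean of 5.81 ± 0.16 (SD, n = 47). It passed log2 6 on only 2 arrays, at 6.45 and 6.44. The other Bak1 probe set stayed between 5.12 and 5.32, near the floor, and had r = -0.18 with the chosen one. The other Bid probe sets never passed 5.57. The Bak1 and Bid results thus rest on a single probe set each.

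**Figure D1:**
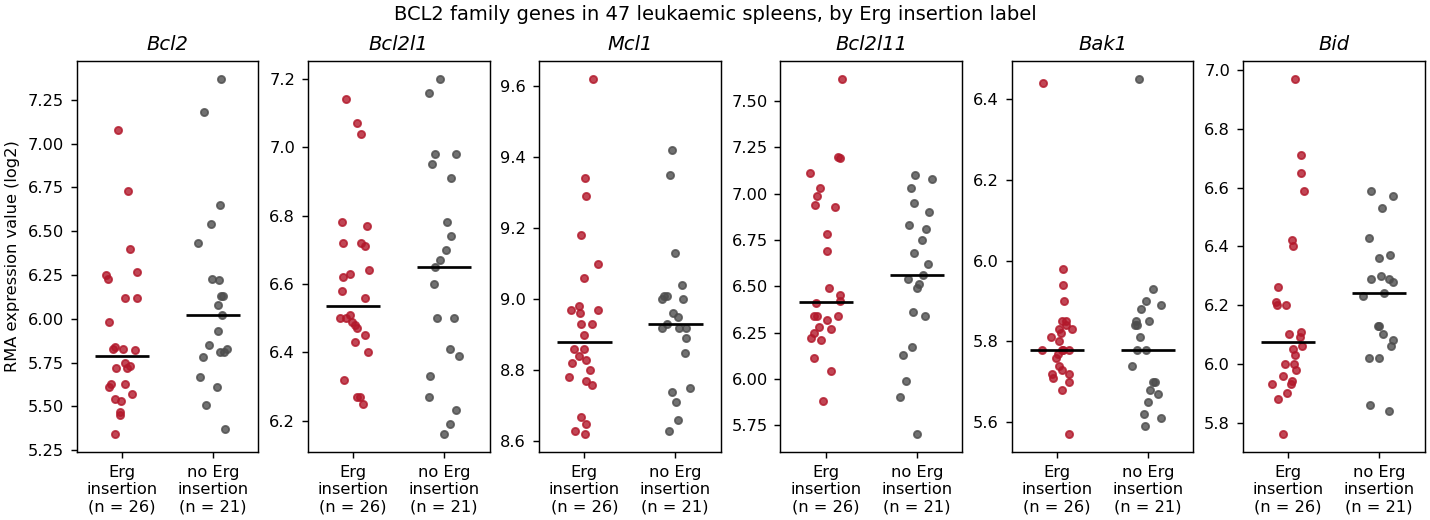
Log2 RMA value of the 6 measured BCL2 family genes (vertical axis, own range per gene) in 26 leukaemias with the Erg insertion label (red) and 21 without it (grey). Each point is 1 mouse and bars are medians; the groups overlap for all 6 genes, and Bcl2 reaches 7.08 with an Erg insertion and 7.37 without one.

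No member was called by any of the study's labels, as they stand. By Erg label, limma called 0 of 6 members at an adjusted p under 0.05 (line and sex labels as covariates, Benjamini-Hochberg over 18178 genes), beside 0% of all genes tested and 666 genes at an unadjusted p under 0.05. Erg RNA itself was not called either. It was higher by 0.56 ± 0.29 log2 units under the insertion label (SE, limma p = 0.0583 before adjustment, adjusted p = 0.999). Bcl2 averaged 5.89 ± 0.41 in leukaemias with an Erg insertion (SD, n = 26) and 6.10 ± 0.51 in those without one (SD, n = 21). The fitted difference, insertion minus no insertion, was -0.25 ± 0.14 log2 units (SE, limma adjusted p = 0.999). Bcl2l11 ran from 5.88 to 7.62 with a median of 6.42 with an Erg insertion, and from 5.70 to 7.10 with a median of 6.56 without one. For the other 5 members the fitted Erg differences lay between -0.05 and 0.04 log2 units. The median age label was 74 with an Erg insertion and 54 without one, and with age as a further covariate the difference was -0.381 for Bcl2 and -0.162 for Bcl2l1. In the 23 arrays whose sex label matched Xist it was 0.265 for Bcl2l11 and -0.175 for Bid. None of these passed.

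By line label, 0 of 6 members were called, beside 0% of all genes (540 at an unadjusted p under 0.05). Bcl2 averaged 5.92 ± 0.32 in line 6113 (SD, n = 21) and 6.04 ± 0.56 in line 6070 (SD, n = 26). By sex label the count was again 0 of 6, beside 0% of all genes (460 at an unadjusted p under 0.05). The member with the lowest p there was Mcl1, at 9.00 ± 0.25 under the female label (SD, n = 25) and 8.86 ± 0.13 under the male label (SD, n = 22), with limma p = 0.0196 before adjustment and an adjusted p of 1. By age label the count was 0 of 6, beside 0% of all genes (688 at an unadjusted p under 0.05). The member with the lowest p was Bcl2l1, with a slope of 0.0069 ± 0.003 log2 units per unit of the age label (SE, limma adjusted p = 1).

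Against the lineage markers, Bcl2l11 was the only member called. Klf1, Vpreb1 and Cd3d were fitted together across all genes with limma, so that each slope gives the change of a gene per log2 unit of 1 marker with the other 2 held fixed. Bcl2l11 fell by 0.23 ± 0.05 log2 units per log2 unit of Klf1 (SE, limma adjusted p = 0.0017). It was the only one of 6 members called with Klf1, where 8.84% of all genes were called, 4.47% higher and 4.37% lower. With Vpreb1, Bcl2l11 rose by 0.064 ± 0.0219 log2 units per log2 unit (SE, limma adjusted p = 0.0311), again the only one of 6 members, where 20.6% of all genes were called, 8.06% higher and 12.5% lower. With Cd3d, 0 of 6 members were called, where 8.3% of all genes were, 4.39% higher and 3.91% lower; at an unadjusted p under 0.05 the share was 0 of 6 members and 19.6% of all genes. A count of 1 in 6 is near these backgrounds. For Mcl1 the values depended on the probe set. Its slope on Vpreb1 was 0.0137 with the brightest (limma adjusted p = 0.688) and 0.0626 with the most variable (adjusted p = 0.0689). The brightest Mcl1 probe set had r = 0.25 with Vpreb1, and the others had 0.46, 0.01, 0.51, 0.53 and 0.50. With Klf1 the brightest had r = -0.16, and the others -0.39, 0.05, -0.36, -0.36 and -0.30.

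The Klf1 call for Bcl2l11 did not hold under every setting. It was lost with the erythroid, B and T list means in place of the single markers (slope -0.201, adjusted p = 0.086), in line 6070 alone (slope -0.204, adjusted p = 0.281) and without the 2 arrays farthest from the Klf1 median, replicates 16 and 26 with an Erg insertion (slope -0.194, adjusted p = 0.0542). The Vpreb1 call was lost under 5 of the alternatives, whose slopes lay between 0.0228 and 0.0944. Other settings called other members: Bak1 fell with Klf1 once the 3′ minus 5′ difference of the control probe sets, a sign of RNA quality, was a covariate (slope -0.0763, adjusted p = 0.0245, chosen after seeing the data), and Bcl2l1 rose with Vpreb1 when list means replaced the markers (slope 0.116, adjusted p = 0.0484).

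**Figure D2:**
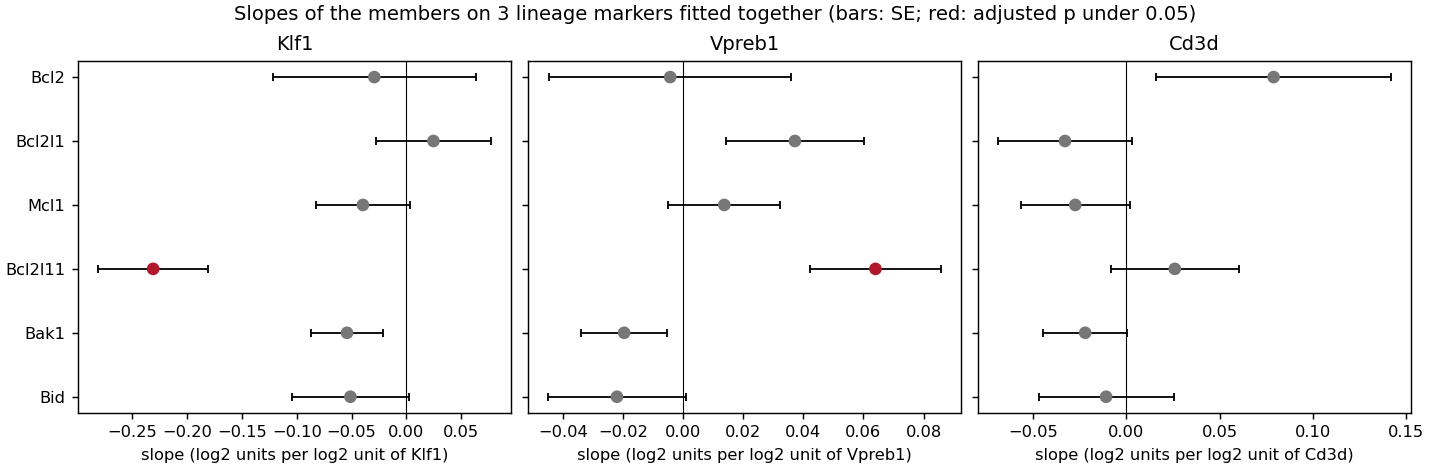
Slopes of the 6 measured members on Klf1, Vpreb1 and Cd3d, fitted together over 47 arrays (horizontal axis, log2 units of the gene per log2 unit of the marker; bars are the SE). Bcl2l11 is the only gene past the threshold (red), at -0.23 on Klf1 and 0.064 on Vpreb1; the horizontal scales differ between panels.

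The array values show how Bcl2l11 and Klf1 ran against each other. The 5 arrays with the lowest Klf1, at 5.62, 6.39, 6.43, 6.96 and 7.33, had Bcl2l11 at 7.62, 7.11, 6.95, 6.94 and 6.49. The 5 with the highest Klf1, at 9.99, 9.76, 9.65, 9.65 and 9.64, had Bcl2l11 at 6.90, 6.21, 6.41, 6.11 and 6.32. The array with the highest Klf1 thus broke the pattern, and its Vpreb1 was 9.34. Two-sided permutation tests over the 47 arrays gave r = -0.76 and rho = -0.70, each with p = 1e-05, the smallest that 100000 resamples can give, and r = -0.70 without the 2 arrays farthest from the Klf1 median. This pair was singled out after the slopes were known. In a limma fit on Klf1 alone, 6120 of 18175 genes were called, 2693 of them lower, so falling against Klf1 was common among all genes.

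The relation had the same sign in each stratum examined. It was r = -0.80 within line 6113 (n = 21), r = -0.75 within line 6070 (n = 26) and r = -0.73 in the 33 arrays whose tumour identifier carries the number 9, whose meaning was not given. It was r = -0.59 among the 15 arrays with Vpreb1 above log2 7 (p = 0.0273) and r = -0.62 among the 25 arrays with neither Vpreb1 nor Cd3d above it (p = 0.00159). Among the 7 arrays with Cd3d but not Vpreb1 above log2 7 it was r = -0.71 (exact permutation p = 0.0875). All 4 other Bcl2l11 probe sets also ran against Klf1, with r between -0.69 and -0.44. Bcl2l11 had r = -0.17 with the control 3′ minus 5′ difference (two-sided permutation, adjusted p = 0.381 over 6 relations). Without the 2 arrays farthest in that difference r was -0.39 (adjusted p = 0.0468). With the difference fitted out, Bcl2l11 and Klf1 had r = -0.76.

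Bcl2l11 also moved with several of the marker list means. Over 48 relations between 6 members and 8 lists, adjusted together, its r was -0.62 with the erythroid list (adjusted p = 0.000192), 0.66 with the stem and progenitor list (adjusted p = 0.00012), 0.64 with the macrophage list (adjusted p = 0.00012) and 0.49 with the neutrophil list (adjusted p = 0.00252). Spearman's rho for these was -0.59, 0.63, 0.63 and 0.59, and r was -0.51, 0.57, 0.57 and 0.52 once the 2 arrays farthest in each list were left out. In the stem and progenitor list 4 of 8 genes passed log2 7 on some array, and Hoxa9 never passed log2 6. In the macrophage list 6 of 8 passed log2 7 on some array. The megakaryocyte list (r = 0.35, adjusted p = 0.064), the T and NK cell list (0.31, adjusted p = 0.103) and the stroma list (0.29, adjusted p = 0.121) did not pass on r, though their rho did (0.41, 0.46 and 0.39). With the B cell list r was 0.65 (adjusted p = 0.00012), rho was 0.63, and r was 0.64 without the 2 farthest arrays. Vpreb1 and Cd3d divide the arrays, so a pooled r with the B or T list partly compares sets of arrays. Bcl2l11 was therefore also read by set. Its highest values were found where B precursor or T cell markers were also high: it ran from 5.70 to 7.62 with a median of 6.90 in the 15 arrays with Vpreb1 above log2 7, from 6.13 to 7.20 with a median of 6.94 in the 7 with Cd3d but not Vpreb1 above it, and from 5.88 to 6.93 with a median of 6.34 in the other 25. The ranges of the 3 sets of arrays overlapped. How much of the Bcl2l11 differences these cell types carry was not tested.

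**Figure D3:**
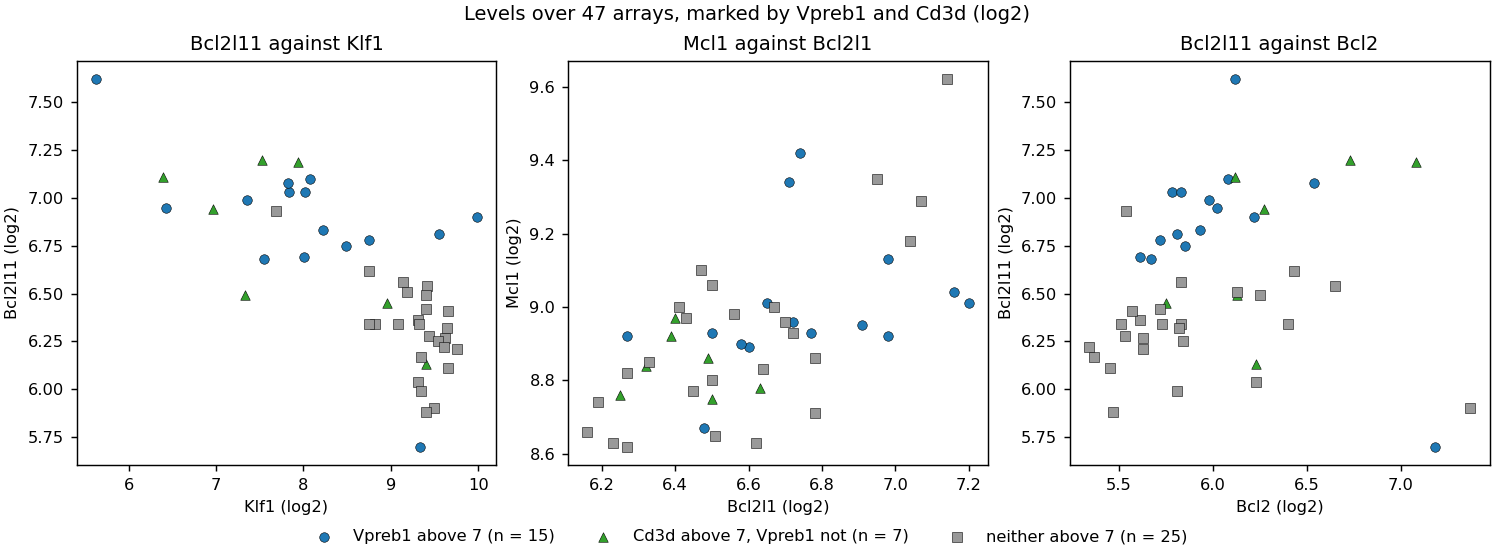
Levels of 3 pairs over 47 arrays on log2 axes: Bcl2l11 against Klf1 (left), Mcl1 against Bcl2l1 (middle) and Bcl2l11 against Bcl2 (right). Points are arrays with Vpreb1 above log2 7 (blue circles, 15), Cd3d but not Vpreb1 above it (green triangles, 7) or neither (grey squares, 25); Bcl2l11 falls as Klf1 rises, Mcl1 rises with Bcl2l1, and the 2 arrays with the highest Bcl2 have Bcl2l11 below 6.

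Among the members themselves, 15 pairs could be formed from the 6 measured genes, and 1 pair passed. Bcl2l1 and Mcl1 rose and fell together, with r = 0.61 (two-sided permutation, adjusted p = 0.0003 over 15 pairs) and rho = 0.58 (adjusted p = 0.00045), and r = 0.64 without the 2 arrays farthest from the Bcl2l1 median. The array with the highest Mcl1, at 9.62, had Bcl2l1 at 7.14. The 3 arrays with the lowest Mcl1, at 8.62, 8.63 and 8.63, had Bcl2l1 at 6.27, 6.62 and 6.23. In the limma fit of all genes on the Bcl2l1 level, Mcl1 rose by 0.48 ± 0.09 log2 units per log2 unit of Bcl2l1 (SE, adjusted p = 0.000251). It was the only one of the 5 other members called, where 11.2% of all genes were called, 3.34% higher and 7.83% lower. With the 3 lineage markers as covariates Bak1 was called as well (slope 0.261, adjusted p = 0.0365). Only 0.253% of the genes tested had a higher r with Bcl2l1 than Mcl1 had.

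The Bcl2l1 and Mcl1 relation was r = 0.65 within line 6113 (p = 0.00121), r = 0.61 within line 6070 (p = 0.00078), r = 0.59 in the arrays with identifier number 9 (p = 0.00027) and r = 0.60 after the 3 lineage markers were fitted out. It was not even over the marker strata. It was r = 0.73 in the 25 arrays with neither Vpreb1 nor Cd3d above log2 7 (p = 4e-05), but r = 0.27 in the 15 with Vpreb1 above it (p = 0.33) and r = -0.16 in the 7 with Cd3d but not Vpreb1 above it (exact permutation p = 0.739). Whether these strata differ was not tested. It also depended on the Mcl1 probe set: 3 of the 5 others gave r between 0.53 and 0.60, and 2 gave r = 0.24 (p = 0.108) and r = 0.09 (p = 0.541).

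Markers of other cells moved with these genes. On r, the megakaryocyte list passed with both and the neutrophil list with Bcl2l1 only. The mean of the megakaryocyte and platelet list, which ran from 5.79 to 9.88 over the arrays, had r = 0.66 with Bcl2l1 (adjusted p = 0.00012 over 48 relations) and r = 0.53 with Mcl1 (adjusted p = 0.00104), with rho of 0.65 and 0.50 and, without the 2 farthest arrays, r of 0.66 and 0.55. All 6 measured genes of that list were above log2 7 on some array and none on all. The neutrophil list mean, from 5.30 to 9.48, had r = 0.51 with Bcl2l1 (adjusted p = 0.00192) and r = 0.31 with Mcl1 (adjusted p = 0.103), with rho of 0.44 and 0.35 and, without the 2 farthest arrays, r of 0.44 and 0.37. In it 9 of 10 genes passed log2 7 on some array while Elane never passed log2 6. The macrophage list mean had r = 0.33 with Bcl2l1 (adjusted p = 0.0888) and r = 0.30 with Mcl1 (adjusted p = 0.114). Its rho passed with both, at 0.38 (adjusted p = 0.0294) and 0.39 (adjusted p = 0.0255). Without the 2 farthest arrays its r was 0.37 (adjusted p = 0.0473) and 0.40 (adjusted p = 0.0279). With the megakaryocyte and neutrophil list means fitted out, Bcl2l1 and Mcl1 had r = 0.42 (p = 0.003), a setting chosen after these relations were seen. Bcl2l1 also rose with the 3′ minus 5′ difference of the array's control probe sets, which ran from 0.42 to 1.65, with r = 0.35 (adjusted p = 0.0456 over 6 relations) and r = 0.15 without the 2 farthest arrays. With that difference fitted out, the pair had r = 0.63.

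Bcl2 and Bcl2l1, the pair known for lymphoid and erythroid survival, did not pass. Over 47 arrays r was 0.24 (two-sided permutation p = 0.108, adjusted p = 0.323 over 15 pairs), rho was 0.22 (adjusted p = 0.534), and leaving out the 2 arrays farthest in Bcl2l1 gave r = 0.18. The array with the highest Bcl2, at 7.37, had Bcl2l1 at 6.78, and the array with the highest Bcl2l1, at 7.20, had Bcl2 at 6.54. The 2 arrays with the lowest Bcl2l1, at 6.16 and 6.19, had Bcl2 at 5.61 and 5.37. Other arrays did not follow: high Bcl2l1 values of 7.14 and 7.07 went with Bcl2 at 5.73 and 5.54, and low Bcl2l1 values of 6.25 and 6.27 went with Bcl2 at 6.12 and 6.02. Over all 47 arrays, 12 had both genes above their medians and 13 had neither, while 11 had only Bcl2 and 11 only Bcl2l1 above.

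By lineage, the pair had r = 0.53 in the 15 arrays with Vpreb1 above log2 7 (p = 0.0415 before adjustment), r = 0.24 in the 25 with neither marker above it (p = 0.242) and r = 0.33 in the 7 with Cd3d but not Vpreb1 above it (exact permutation p = 0.467). Within line 6113 r was 0.08, within line 6070 it was 0.29, and in the arrays with identifier number 9 it was 0.20. With the 3 lineage markers fitted out, r was 0.35 (adjusted p = 0.0806 over 15 pairs). With the megakaryocyte list mean fitted out, r was -0.04 (p = 0.81), and that list had r = 0.40 and rho = 0.54 with Bcl2 (adjusted p = 0.0279 and 0.000754).

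The levels of the pair by lineage were as follows. Bcl2 had a median of 5.93 in the 15 arrays with Vpreb1 above log2 7, 6.23 in the 7 with Cd3d but not Vpreb1 above it, and 5.73 in the other 25. Bcl2l1 had medians of 6.72, 6.40 and 6.51 in the same sets. Bcl2 was above log2 6 in 6 of 15, 6 of 7 and 7 of 25 of these arrays. The jointly fitted slope of Bcl2 on Cd3d was 0.08 ± 0.06 log2 units per log2 unit (SE, limma adjusted p = 0.565), and that of Bcl2l1 was -0.03 ± 0.04 (SE, adjusted p = 0.711). Neither passed the test. On Klf1 the slopes were -0.0293 for Bcl2 (limma adjusted p = 0.914) and 0.0246 for Bcl2l1 (adjusted p = 0.861). With list means in place of the markers, Bcl2l1 had an erythroid slope of 0.179 (adjusted p = 0.0823). The erythroid list mean had r = 0.32 with Bcl2l1 (two-sided permutation, adjusted p = 0.102 over 48 relations) and rho = 0.34 (adjusted p = 0.0536). Without the 2 farthest arrays r was 0.36 (adjusted p = 0.0478).

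**Figure D4:**
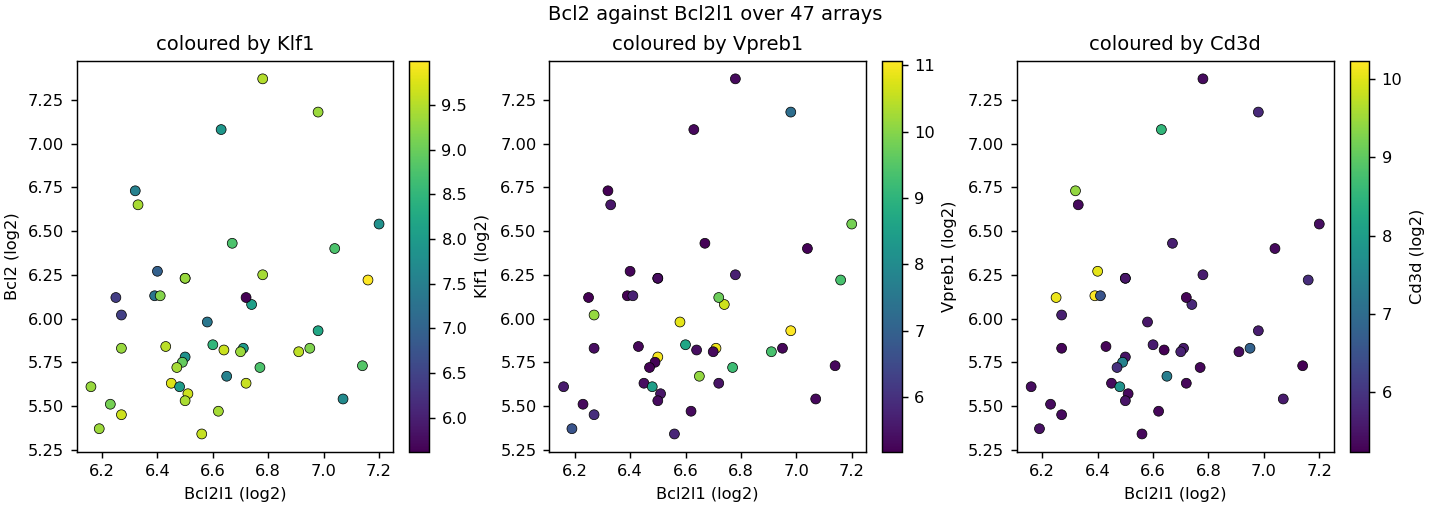
Bcl2 (vertical axis) against Bcl2l1 (horizontal axis) in 47 arrays, both log2 RMA, coloured by the level of Klf1 (left), Vpreb1 (middle) and Cd3d (right). The points scatter with r = 0.24, and the 5 arrays with the highest Cd3d have Bcl2 above 6 and Bcl2l1 at 6.63 or lower.

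Bcl2 and its antagonist Bcl2l11 gave a value that rested on 2 arrays. Over 47 arrays r was 0.12 (adjusted p = 0.647 over 15 pairs) and rho was 0.29 (adjusted p = 0.237). The 2 arrays with the highest Bcl2, replicates 20 and 14 without an Erg insertion, held Bcl2 at 7.37 and 7.18 with Bcl2l11 at 5.90 and 5.70, and 5.70 was its lowest value on any array. The next array, replicate 11 with an Erg insertion, held Bcl2 at 7.08 with Bcl2l11 at 7.19. Without the 2 highest arrays r was 0.47 (adjusted p = 0.0087 over 15 pairs). Replicate 14 lies among the arrays with Vpreb1 above log2 7, where r was -0.46 with it (n = 15, p = 0.102) and 0.54 without it (n = 14, p = 0.055). Replicate 20 lies among those with neither marker above it, where r was -0.03 with it (n = 25, p = 0.886) and 0.31 without it (n = 24, p = 0.145). The 7 arrays with Cd3d but not Vpreb1 above log2 7 hold neither of these arrays and had r = 0.63 (exact permutation p = 0.134). None of the strata passed, with or without the 2 arrays.

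The remaining pairs did not pass as chosen. Bid had r between -0.13 and 0.26 with the other members, and Bak1 had r between 0.07 and 0.34. The r of 0.34 between Bak1 and Bcl2l1 (adjusted p = 0.15) had a rho of 0.07, and with the lineage markers fitted out r was 0.42 (adjusted p = 0.0247) and rho 0.22 (adjusted p = 0.343). Mcl1 and Bak1 had r = 0.18, but r = 0.57 (adjusted p = 0.00195) with the most variable Mcl1 probe set, where rho was 0.10 and r was 0.04 without the 2 arrays farthest in Mcl1. Mcl1 and Bcl2l11 had r = 0.27 (adjusted p = 0.285) with the brightest Mcl1 probe set and r = 0.50 (adjusted p = 0.0015, rho 0.53) with the most variable one. The 2 arrays with the highest Bak1, at 6.45 and 6.44, had Bcl2l1 at 7.20 and 7.07. Bak1 rose with the 3′ minus 5′ difference of the control probe sets (r = 0.63, adjusted p = 0.00012 over 6 relations), and with rho = 0.38 (adjusted p = 0.0579) and r = 0.33 without the 2 farthest arrays. With that difference as a covariate its slopes were -0.0763 on Klf1, as given above, -0.0101 on Vpreb1 and -0.00403 on Cd3d.

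**Figure D5:**
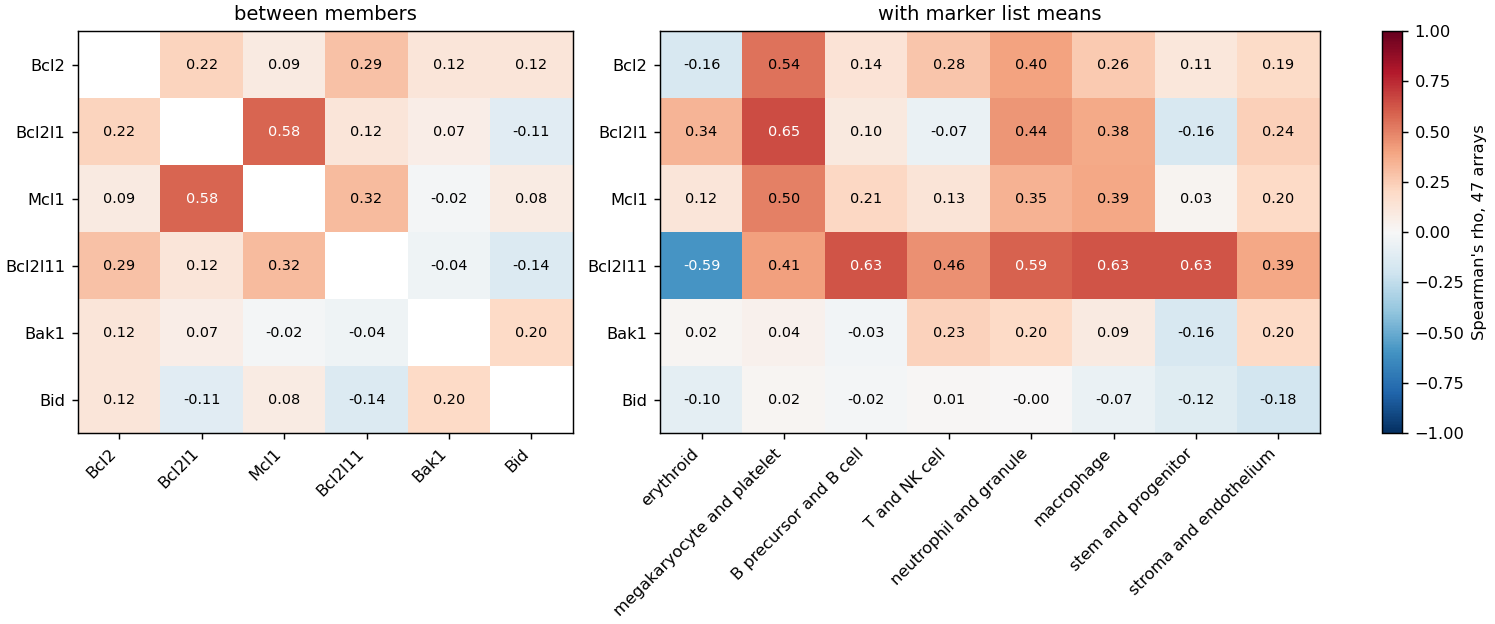
Spearman's rho over 47 arrays between the 6 measured members (left) and between each member and the mean of 8 marker lists (right); red is positive and blue negative. Bcl2l1 with Mcl1 (0.58) is the strongest pair of members, and Bcl2l11 is the member with the strongest negative rho, -0.59, with the erythroid list.

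The other genes of the pathway were read from a list of 34, of which 29 were measured. With Klf1, 4 rose, 2 fell and 23 did not pass, where 8.84% of all genes were called, beside medians of -0.00114 for the list's slopes and 0.000559 for all genes. Those that rose were Htra2, a mitochondrial protease that blocks caspase inhibitors when released (slope 0.213, adjusted p = 0.0106), Bcl2l13, a BCL2-like protein of the mitochondrial membrane (0.0899, adjusted p = 0.00986), Usp9x, a deubiquitinase that stabilises MCL1 (0.106, adjusted p = 0.023), and Cycs, cytochrome c (0.12, adjusted p = 0.0456). Those that fell were Pmaip1, the BH3-only protein NOXA (slope -0.208, adjusted p = 0.00863), and Birc2, an inhibitor of apoptosis (-0.142, adjusted p = 0.0106). Pmaip1 and Bcl2l11, both BH3-only genes, thus fell with Klf1. The 5 other BH3-only genes of the list (Bad, Bik, Hrk, Bbc3 and Bmf) and the BH3-only member Bid did not pass.

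With Vpreb1, 6 of the 29 rose, 6 fell and 17 did not pass, where 20.6% of all genes were called. The median slope was -0.00852 for the list and -0.00216 for all genes. The leading genes that rose were Bmf, another BH3-only gene (slope 0.0977, adjusted p = 1.42e-05), Birc3, an inhibitor of apoptosis (0.138, adjusted p = 1.99e-05), and Bok, an effector relative of Bax and Bak1 (0.0505, adjusted p = 7.96e-05). Those that led the fall were Bcl2l13 (-0.0488, adjusted p = 0.000397), Bik, a BH3-only gene (-0.0294, adjusted p = 0.00111), and Htra2 (-0.102, adjusted p = 0.00187). Of the 6 BH3-only genes of the list, 2 rose with Vpreb1 (Bmf and Pmaip1), 2 fell (Bik and Bbc3) and 2 did not pass (Bad and Hrk).

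With Cd3d, 3 of the 29 rose, 3 fell and 23 did not pass, where 8.3% of all genes were called, with a median slope of -0.00339 for the list and -0.00268 for all genes. Cycs (0.0938, adjusted p = 0.0198), Bcl2l14 (0.0358, adjusted p = 0.0413) and the mitophagy receptor Fundc1 (0.0839, adjusted p = 0.0481) rose. The anti-apoptotic Bcl2l2, or BCL-W, fell by 0.0535 (adjusted p = 0.00067), and Htra2 (-0.179, adjusted p = 0.00131) and Bok (-0.0456, adjusted p = 0.0434) fell as well. Htra2 was called with all 3 markers, higher with Klf1 and lower with the other 2.

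The genes whose levels ran most like each member are given by Pearson's r over 47 arrays, as a description, since all values share arrays and normalization. Bcl2 was closest to Setmar (r = 0.65), Lcp2 (0.65) and Itgb2 (0.64), and farthest from Lrrc8c (-0.64). Setmar stayed between 5.22 and 5.54, near the floor. Bcl2l1 was closest to Ypel5 (r = 0.79), Ppp1r15a (0.79) and Gtpbp2 (0.77), and farthest from Utp15 (-0.79). Mcl1 was closest to Txnip (r = 0.69), Smim14 (0.67) and Relch (0.67), and farthest from Eef1d (-0.79). Lcp2 encodes a signalling adaptor of T cells, platelets and myeloid cells and Itgb2 the common chain of the leukocyte integrins.

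Bcl2l11 was closest to Iqgap1 (r = 0.85), Rogdi (0.84) and Cd53 (0.84), a leukocyte surface protein, and farthest from E2f6 (-0.87). Cd53 itself ran from 5.92 to 9.18 over the arrays. Bak1 was closest to Dctn1 (r = 0.83), Edc4 (0.81) and Cdipt (0.80), and farthest from Tmed7 (-0.80). Bid had the loosest neighbours, Nt5c (r = 0.59), Ppp2cb (0.57) and Rmdn1 (0.57), and its lowest r was -0.54 with Pdx1, which stayed between 5.05 and 5.33.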

How the data were processed

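Whole-spleen RNA was measured on Affymetrix mouse arrays. The authors deposited log2 values, which per the submitters' processing notes come from RMA (affy, R 2.15). RMA equalises the arrays' distributions and compresses differences near the floor. A genome build for the probe annotation is not given in the sources used here. Of 45101 probe sets, 34945 named 1 gene and were used and 932 named several. Each gene was read from its probe set with the highest mean, and genes above log2 5 on at least 9 arrays were tested, which left 18178 of 18193. Arrays have no read depth, and their number limits the precision.

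Fits across all genes used limma 3.58.1 in R 4.3.3 with Benjamini-Hochberg adjustment and a threshold of 0.05; a gene was left out of a fit on its own level. Correlations have two-sided permutation p-values of 100000 resamples, exact below 10 arrays. A family of 28 pairs was planned, and 15 were computed because 6 members had values. Lists of marker and pathway genes were summarised by their means and counts. The marker fit was run on shuffled arrays to which known slopes on Klf1 had been added. Slopes on Vpreb1 and Cd3d were not checked in this way, and the share recovered is not given here. Named genes were all members, the 3 markers, Xist, the 3 highest and 1 lowest correlated genes per member, and the 3 pathway genes per direction and marker that passed the threshold with the lowest adjusted p. Others that passed are named beyond that rule where a count was small (Cycs with Klf1, and Pmaip1 and Bbc3 with Vpreb1), after their values were seen. Erg, the gene of its label, was likewise named after its value was seen. The members and lists were chosen with earlier results of these data known.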

Additional observations from a re-analysis of the deposited data

How the results depend on the processing

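Marker and label slopes of the members were refitted under 302 alternatives: 263 kept direction and side of the threshold, 8 lost a call, 3 gained one and 28 changed sign, of which 0 passed the threshold. Those that kept their side include slopes called in neither fit. A changed low-value filter left every slope that was still fitted as it was. The stricter filter, above log2 6 on 9 arrays, left out Bak1, which passed log2 6 on only 2. The most variable probe set was also the brightest for every member but Mcl1. Such alternatives could not change a direction, so the count that was kept overstates stability. The 3 gained calls were Bak1 on Klf1 with the control 3′ minus 5′ difference (-0.0763), Bcl2l1 on Vpreb1 with list means (0.116) and Bak1 on Bcl2l1 with the markers (0.261). The causes were not tested, except that single lines have fewer arrays.

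Bcl2l11 on Klf1 lost its call with list means (-0.201), in line 6070 (-0.204) and without the 2 arrays farthest in Klf1 (-0.194, chosen after seeing the data). Bcl2l11 on Vpreb1 lost it with the mean of probe sets (0.0228), the identifier number as a block (0.0611), identifier number 9 alone (0.0646), line 6113 (0.0521) and line 6070 (0.0944). Slopes that changed sign were, on Klf1, Bcl2 (0.194) and Bcl2l1 (-0.0294) in line 6070, Mcl1 with list means (0.0733) and Bak1 with number 9 (0.000707). On Vpreb1 Bcl2 changed sign in line 6070 (0.0928) and with the control 3′ minus 5′ difference (0.00383). On Cd3d, signs changed in line 6113 for Bcl2 (-0.0416), Bcl2l11 (-0.0637), Bak1 (0.00102) and Bid (0.0186), with each marker alone for Bak1 (0.0033) and Bid (0.0141), with list means for Bak1 (0.00467) and Bid (0.00764), and with number 9 for Bak1 (0.00801). On the Erg label, they changed in line 6113 for Bcl2l1 (0.00973), Mcl1 (-0.0318), Bcl2l11 (-0.0885) and Bak1 (0.0681), and in line 6070 for Bid (0.0208). With matched sex labels only, Bcl2l1 (0.0121), Mcl1 (-0.0129) and Bak1 (0.0201) changed sign on the Erg label, without covariates Mcl1 (-0.0145) and Bak1 (0.0142), and with the age label Mcl1 (-0.0251). Mcl1 on the line label changed with the identifier block (-0.0164), and Bid on the age label without covariates (-0.000358).

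Genes called with Klf1 numbered 1607, against 6120 with each marker alone, 896 in line 6113 and 384 in line 6070; with Vpreb1 3735, against 1553 in line 6113 and 1867 in line 6070; with Cd3d 1508, against 283 in line 6113 and 577 in line 6070.

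Bcl2 against Bcl2l1 had r = 0.35 with the markers fitted out (p = 0.0166 before adjustment), 0.53 in the Vpreb1 arrays and -0.04 with the megakaryocyte list fitted out. Of 19 other combinations of probe sets 14 gave a negative r: -0.16, -0.04, -0.10, -0.06, -0.05, -0.21, -0.26, -0.15, -0.09, -0.22, -0.03, -0.35, -0.38 and -0.02, all with a Bcl2l1 probe set at the floor. Bcl2l1 against Mcl1 fell short with r = 0.27 in the Vpreb1 arrays, -0.16 in the Cd3d arrays, and 0.24 and 0.09 with 2 other Mcl1 probe sets, and Bcl2l11 against Klf1 with r = -0.71 in the 7 Cd3d arrays. Bcl2 against Bcl2l11 changed sign with number 9 (-0.02), in the Vpreb1 arrays (-0.46), in those with neither marker (-0.03) and with other probe sets (-0.09 and -0.08), while 4 other combinations of probe sets gave a higher r with p under 0.05 (0.58, 0.49, 0.35 and 0.35). Pairs past the threshold numbered 1, against 2 without the 2 farthest arrays, 2 with the markers fitted out (Bak1 with Bcl2l1 added) and 3 with the most variable probe sets (Mcl1 with Bcl2l11 and with Bak1 added). With the mean of probe sets in place of the brightest, levels were 5.41 for Bcl2, 5.50 for Bcl2l1, 7.62 for Mcl1, 5.76 for Bcl2l11, 5.51 for Bak1 and 5.59 for Bid, and Mcl1 averaged 7.49 with its most variable probe set.

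No paired analysis was possible because the replicate numbers only name arrays and each mouse gave 1 array. The strata by Vpreb1 and Cd3d were chosen after seeing the data.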

Other observations

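The pathway genes were also read against the level of Bcl2l1. Of the 29 measured, 0 rose, 3 fell and 26 did not pass in the limma fit on Bcl2l1, where 3.34% of all genes were called higher and 7.83% lower. At an unadjusted p under 0.05, 3 had positive slopes and 7 negative ones, where 23.4% of all genes passed. Those that fell were Diablo, a mitochondrial protein that blocks caspase inhibitors (slope -0.355 log2 units per log2 unit of Bcl2l1, adjusted p = 0.00717), Huwe1, a ubiquitin ligase that acts on MCL1 (-0.285, adjusted p = 0.00357), and Vdac2, an outer membrane channel that binds BAK (-0.349, adjusted p = 0.00564). They were named after their values were seen. The median slope was -0.0283 for the list and -0.00137 for all genes. The megakaryocyte list mean moved with Bcl2l1 as given above, and its part in these 3 slopes was not tested.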
